A study of Mus musculus with 16 samples.

Results

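The genes described are 10 components of the tight junction measured in mouse kidney: the claudins Cldn1, Cldn2, Cldn3, Cldn4, Cldn7, Cldn8, Cldn12 and Cldn15, the scaffold gene Tjp1 and the occludin gene Ocln. They were taken by symbol from a table of 52338 genes, where each symbol stood on 1 row, and all 10 were among the 17731 genes that passed the filter on low counts. The libraries came from C57BL6 mice on a high-fat diet, 4 per group, with kidneys taken on day 15: FAN with time-restricted feeding, FAN with ad libitum feeding, vehicle with time-restricted feeding and vehicle with ad libitum feeding. FAN is not spelled out in the labels, but the word folic stands in the column names. The labels give no age, sex or animal number, so p-values measure the spread between these libraries. The series title names kidney damage and renal function after injury under time-restricted feeding as its question.

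Tight junctions seal the space between neighbouring epithelial cells and decide which ions and how much water pass through it. Claudins are the membrane proteins that set this selectivity, some as barriers and others as pores, and each nephron segment carries its own combination. The leaky proximal tubule uses pore-forming claudins, Cldn2 for cations and water and Cldn10 for anions in one of its isoforms, whereas the distal nephron and collecting duct use Cldn3, Cldn4, Cldn7 and Cldn8. Tjp1 encodes ZO-1, which links claudins to actin, and occludin is a membrane protein of the same strands. Whole kidney RNA mixes all segments, and fewer cells of a type and less RNA per cell cannot be told apart in it.

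The promoters of 4 members are shown because these genes moved in opposite directions below: Cldn1, Cldn3 and Cldn4 rose after FAN, and Cldn2 fell after FAN under ad libitum feeding with TMM scaling. Each run is the 250 bases before a RefSeq transcript start on GRCm38.p6, written 5′ to 3′ on the gene's strand. Capitals mark matches on either strand to an AP-1 motif (TGANTCA), a Grainyhead motif (AACCNGTT), the Snail and ZEB E-box (CACCTG), the SP1 GC box (GGGCGG) or a TATA box (TATAAA). The windows are chr16:26371840-26372089 (minus strand) for Cldn1, chr5:134985964-134986213 (plus) for Cldn3, chr5:134946935-134947184 (minus) for Cldn4 and chrX:139800558-139800807 (plus) for Cldn2.
Cldn1: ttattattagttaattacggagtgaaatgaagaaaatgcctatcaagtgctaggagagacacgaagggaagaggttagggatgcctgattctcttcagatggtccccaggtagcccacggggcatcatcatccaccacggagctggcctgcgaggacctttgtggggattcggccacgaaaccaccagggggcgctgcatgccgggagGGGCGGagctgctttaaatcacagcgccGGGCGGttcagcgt
Cldn3: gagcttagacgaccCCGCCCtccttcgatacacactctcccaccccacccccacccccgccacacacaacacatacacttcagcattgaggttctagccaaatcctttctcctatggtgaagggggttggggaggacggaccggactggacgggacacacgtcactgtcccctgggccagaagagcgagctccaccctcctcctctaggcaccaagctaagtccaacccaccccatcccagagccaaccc
Cldn4: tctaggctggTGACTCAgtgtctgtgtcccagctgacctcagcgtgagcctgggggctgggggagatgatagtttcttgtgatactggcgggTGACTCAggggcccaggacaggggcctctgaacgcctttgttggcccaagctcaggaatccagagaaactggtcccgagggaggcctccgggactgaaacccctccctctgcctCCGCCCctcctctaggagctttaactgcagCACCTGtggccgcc
Cldn2: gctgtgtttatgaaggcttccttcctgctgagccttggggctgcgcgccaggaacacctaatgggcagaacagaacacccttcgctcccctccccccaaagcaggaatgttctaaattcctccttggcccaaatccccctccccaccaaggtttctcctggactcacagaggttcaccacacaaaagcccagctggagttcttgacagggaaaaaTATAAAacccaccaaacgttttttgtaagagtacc
The Cldn4 window held AP-1 matches at −240 and −158, counted as bases before the start, a GC box at −44 and an E-box at −14, and the Cldn2 window held a TATA box at −35. The Cldn1 window had GC boxes at −42 and −14, and the Cldn3 window had 1 at −236. No 2 of these matches overlap.

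RefSeq promoters were found for 9 of the 10 members, with 13 windows in all. The AP-1 motif was in 6.75% of all 32851 promoter windows and in 2 of the 13, those of Cldn4 and Cldn15. The E-box was in 17.2% of all windows and in 3 of the 13 (Cldn4, Cldn7 and Ocln). The GC box was in 32.7% of all and in 10 of the 13 (of Cldn1, Cldn3, Cldn4, Cldn7, Cldn12, Cldn15, Tjp1 and Ocln). Windows of 1 gene can overlap, and the GC box of Cldn12 at −13 and −73 is the same site counted from 2 starts. The TATA box was in 12.4% of all windows and in that of Cldn2 alone among the 13. The Grainyhead motif, in 1.79% of all windows, had no match in the 13. A match is a description of letters and not a bound site.

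Total counts per library were 12450812 to 28255417 in FAN time-restricted, 19266923 to 33035197 in FAN ad libitum, 14124323 to 31699747 in vehicle time-restricted and 18788303 to 33976660 in vehicle ad libitum kidneys. FAN ad libitum libraries stood apart, with 6.94% to 14.8% of counts on mitochondrial transcripts against 17.2% to 26.7% in the other 3 groups, and with scaling factors of the TMM method of 1.32 to 1.53 against 0.82 to 0.98. Within FAN ad libitum, libraries 6 and 7 had early sheet positions (the S number in a column's name) and libraries 10 and 12 late ones. FAN libraries are named by the number in their column. Levels are TMM-scaled CPM (counts scaled to a common library size), and adjusted p are from edgeR's quasi-likelihood test with Benjamini-Hochberg adjustment over all genes tested, called under 0.05.

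FAN raised the transcripts of Cldn1, Cldn3, Cldn4, Cldn7 and Tjp1 under both feeding regimens. Under time-restricted feeding 5 of the 10 members were called, all higher after FAN, where 43.5% of all genes tested were called and 24.5% were called higher. Under ad libitum feeding 8 of the 10 were called, against 60.7% of all genes. Of these, 6 were higher (32.1% of all genes) and 2 lower (28.6% of all genes), Cldn2 and Cldn12, neither of which was called by library size scaling. The median log2 change of the 10 was 0.60 under time-restricted and 0.76 under ad libitum feeding, against 0.05 and 0.06 over all genes tested.

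**Figure D1:**
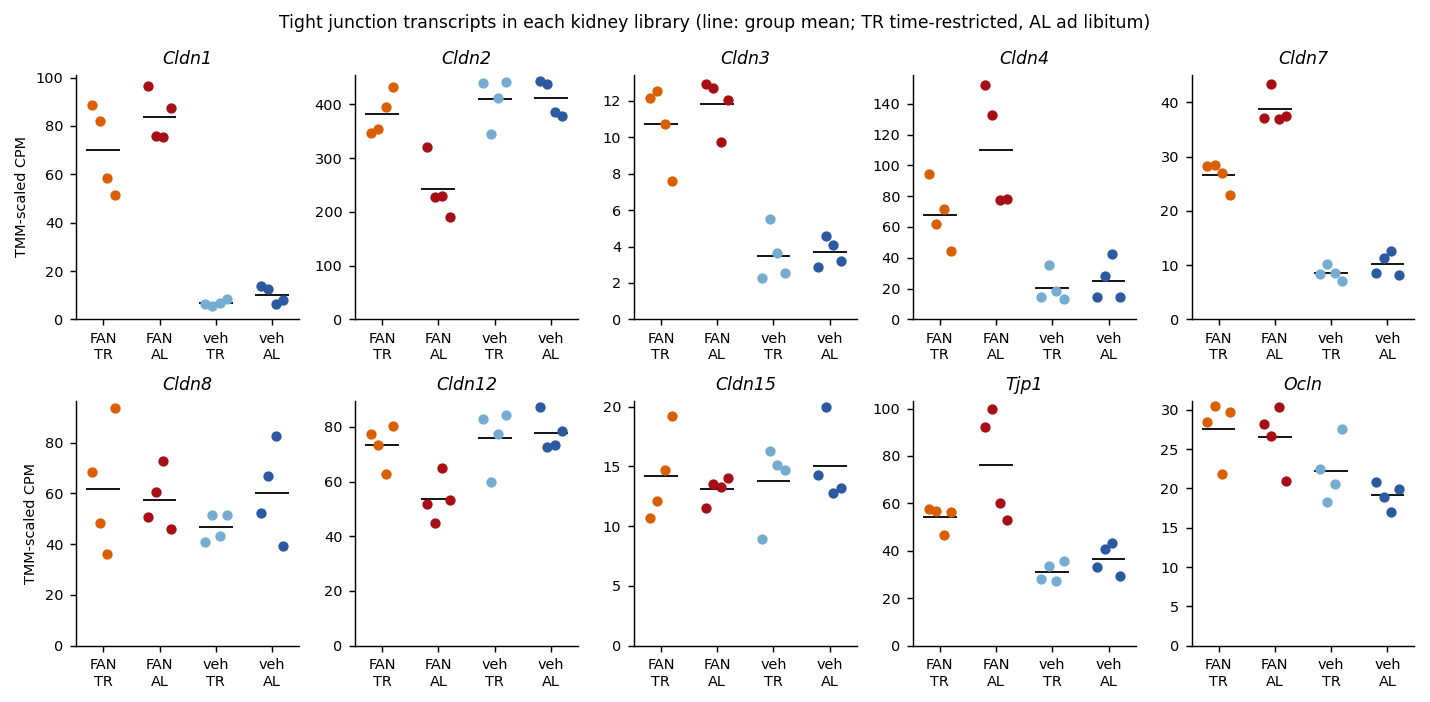
TMM-scaled CPM of each member in each library, with 1 panel per gene, linear axes from 0, groups on the x axis (FAN time-restricted, FAN ad libitum, vehicle time-restricted, vehicle ad libitum) and a line at each group mean. Cldn1, Cldn3, Cldn4, Cldn7 and Tjp1 lie higher in both FAN groups, while the means of Cldn2 and Cldn12 are lowest in FAN ad libitum kidneys at this scaling, but not for Cldn12 by library size, where its log2 change is 0.15.

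Cldn1, a barrier claudin that in the kidney is best known from the parietal cells of Bowman's capsule, changed most among the members (ENSMUSG00000022512, GRCm38 chromosome 16, 26356642 to 26371841, minus strand). It had 88.8, 82.2, 58.3 and 51.6 CPM in FAN time-restricted, 96.7, 75.9, 75.4 and 87.4 CPM in FAN ad libitum, 6.35, 5.63, 6.92 and 8.22 CPM in vehicle time-restricted and 13.6, 12.4, 6.37 and 8.13 CPM in vehicle ad libitum kidneys. Every FAN library was far above every vehicle library, and the FAN groups overlapped each other. The log2 change after FAN was 3.39 ± 0.23 (SE) under time-restricted feeding (10.5-fold, adjusted p = 1.09e-08, edgeR) and 3.04 ± 0.23 under ad libitum feeding (8.22-fold, adjusted p = 3.73e-09). Time-restricted against ad libitum feeding gave −0.25 ± 0.21 in FAN kidneys (edgeR, adjusted p = 0.368). The 5 podocyte markers, the other glomerular epithelium measured, summed to 164 to 299 CPM in FAN time-restricted, 174.4 to 301.7 CPM in FAN ad libitum, 95.3 to 159.6 CPM in vehicle time-restricted and 100.8 to 221 CPM in vehicle ad libitum kidneys. Of these, 4 rose after FAN under time-restricted and 3 under ad libitum feeding, where 24.5% and 32.1% of all genes were called higher. The part of podocytes in the Cldn1 values was not tested.

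Cldn4 and Cldn3, neighbouring single-exon genes on chromosome 5 with 39279 bases between them, encode barrier-type claudins of the distal nephron and collecting duct. Cldn4 (ENSMUSG00000047501, 134945119 to 134946934, minus strand) had 94.2, 61.7, 71.6 and 44.6 CPM in FAN time-restricted, 152, 133, 77.5 and 78.2 CPM in FAN ad libitum, 14.9, 35.5, 18.2 and 12.9 CPM in vehicle time-restricted and 14.3, 28.1, 42.2 and 14.2 CPM in vehicle ad libitum kidneys. FAN and vehicle did not overlap under either regimen, and within FAN ad libitum the 2 libraries with early sheet positions were the high ones. Cldn4 rose by 1.73 ± 0.40 on the log2 scale under time-restricted feeding (edgeR, adjusted p = 0.00278) and by 2.16 ± 0.40 under ad libitum feeding (adjusted p = 2.74e-04). Without FAN ad libitum 6 and 7 the second value was 1.61 (adjusted p = 0.0117). Among the earliest sheet positions alone, which keep FAN ad libitum 6 and 7 and vehicle ad libitum 1 and 2, it was 2.72. The difference between the FAN feeding groups, −0.69 ± 0.39, did not pass (adjusted p = 0.188).

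Cldn3 (ENSMUSG00000070473, 134986214 to 134987472, plus strand) was expressed at a lower level. It had 12.1, 12.5, 10.7 and 7.61 CPM in FAN time-restricted, 12.9, 12.7, 9.73 and 12.03 CPM in FAN ad libitum, 2.28, 5.49, 3.64 and 2.52 CPM in vehicle time-restricted and 2.85, 4.59, 4.07 and 3.21 CPM in vehicle ad libitum kidneys. All FAN values were above all vehicle values. The log2 change was 1.61 ± 0.25 under time-restricted feeding (edgeR, adjusted p = 5.08e-05) and 1.68 ± 0.25 under ad libitum feeding (adjusted p = 1.11e-05). Cldn3 shares 40 exon bases with the antisense gene Wbscr25, whose reads cannot be told apart, since the strand setting of the counting is not given in the sources used here.

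Cldn7, found along the basolateral membrane as well as at the junction in the distal nephron and collecting duct, was the one of these 4 claudins that was also called between the FAN feeding groups (ENSMUSG00000018569, chromosome 11, 69964779 to 69967885, plus strand). It had 28.3, 28.4, 26.9 and 22.9 CPM in FAN time-restricted, 37.1, 43.3, 36.9 and 37.5 CPM in FAN ad libitum, 8.33, 10.2, 8.63 and 7.16 CPM in vehicle time-restricted and 8.56, 11.2, 12.6 and 8.26 CPM in vehicle ad libitum kidneys. The FAN groups lay apart from vehicle and from each other, with FAN ad libitum the higher. FAN raised Cldn7 by 1.63 ± 0.15 on the log2 scale under time-restricted feeding (edgeR, adjusted p = 1.46e-07) and by 1.93 ± 0.15 under ad libitum feeding (adjusted p = 3.99e-09). Time-restricted feeding lowered it in FAN kidneys by a log2 change of −0.54 ± 0.14 (adjusted p = 0.00684), which became −0.48 with adjusted p = 0.0531 without FAN ad libitum 6 and 7.

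Cldn2, the cation and water pore of the proximal tubule and thin descending limb, was the most abundant member per unit of exon length in every group and moved the other way (ENSMUSG00000047230, chromosome X, 139800828 to 139811386, plus strand). It had 346, 354, 395 and 433 CPM in FAN time-restricted, 319.9, 227, 230.2 and 191 CPM in FAN ad libitum, 439, 345, 412 and 442 CPM in vehicle time-restricted and 443, 438, 386 and 377 CPM in vehicle ad libitum kidneys. The FAN ad libitum libraries were all below those of the other 3 groups, which overlapped. Under ad libitum feeding the log2 change after FAN was −0.76 ± 0.15 (edgeR, adjusted p = 2.35e-04), and under time-restricted feeding it was −0.10 ± 0.15 (adjusted p = 0.611). Within FAN, Cldn2 was 0.66 ± 0.15 higher under time-restricted feeding (1.58-fold, adjusted p = 0.00274). The interaction, which tests whether the response to FAN differs between regimens, was also 0.66 but missed the threshold (adjusted p = 0.0556). Over the 16 fits that left out 1 library it ran from 0.57 to 0.83, with edgeR adjusted p of 0.00726 to 0.116. Among these fits only that without FAN ad libitum 6 (adjusted p = 0.00726) called it. Leaving out both 6 and 7 gave 0.86 with adjusted p = 0.00411. By library size the interaction of Cldn2 was not called.

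Cldn12, which lacks the usual scaffold-binding tail of claudins and is linked to calcium permeability of the proximal tubule in mice, followed the same order (ENSMUSG00000046798, chromosome 5, 5489537 to 5514958, minus strand). It had 77.5, 73.3, 62.7 and 80.2 CPM in FAN time-restricted, 51.9, 44.8, 65.1 and 53.3 CPM in FAN ad libitum, 82.8, 59.8, 77.4 and 84.3 CPM in vehicle time-restricted and 87.4, 72.5, 73.4 and 78.3 CPM in vehicle ad libitum kidneys. FAN ad libitum was lowest but for its library 10, which overlapped both time-restricted groups. The log2 change after FAN was −0.54 ± 0.13 under ad libitum feeding (edgeR, adjusted p = 0.00186; 0.15 by library size) and −0.05 ± 0.13 under time-restricted feeding (adjusted p = 0.781). In FAN kidneys time-restricted feeding gave 0.45 ± 0.13 (adjusted p = 0.0149), a call lost without FAN ad libitum 6 and 7 (0.31, adjusted p = 0.161).

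Both falls depended on scaling. Scaling by library size alone moved the median log2 change of all genes to 0.75 for FAN against vehicle under ad libitum feeding and to −0.67 for feeding in FAN kidneys. Cldn2 then had −0.07 (edgeR, adjusted p = 0.689) and Cldn12 0.15 (adjusted p = 0.217) after FAN under ad libitum feeding, both below that median. For feeding in FAN kidneys the values became 0.01 for Cldn2 and −0.19 for Cldn12, both above the median of all genes. The called genes split into 5691 higher and 5079 lower with TMM and 10821 higher and 2072 lower by library size for FAN under ad libitum feeding. For feeding in FAN kidneys the split was 3180 higher and 2458 lower with TMM against 993 higher and 10503 lower by library size. The rises of Cldn1, Cldn3, Cldn4, Cldn7, Tjp1 and Ocln under ad libitum feeding kept their direction and call under both scalings.

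**Figure D2:**
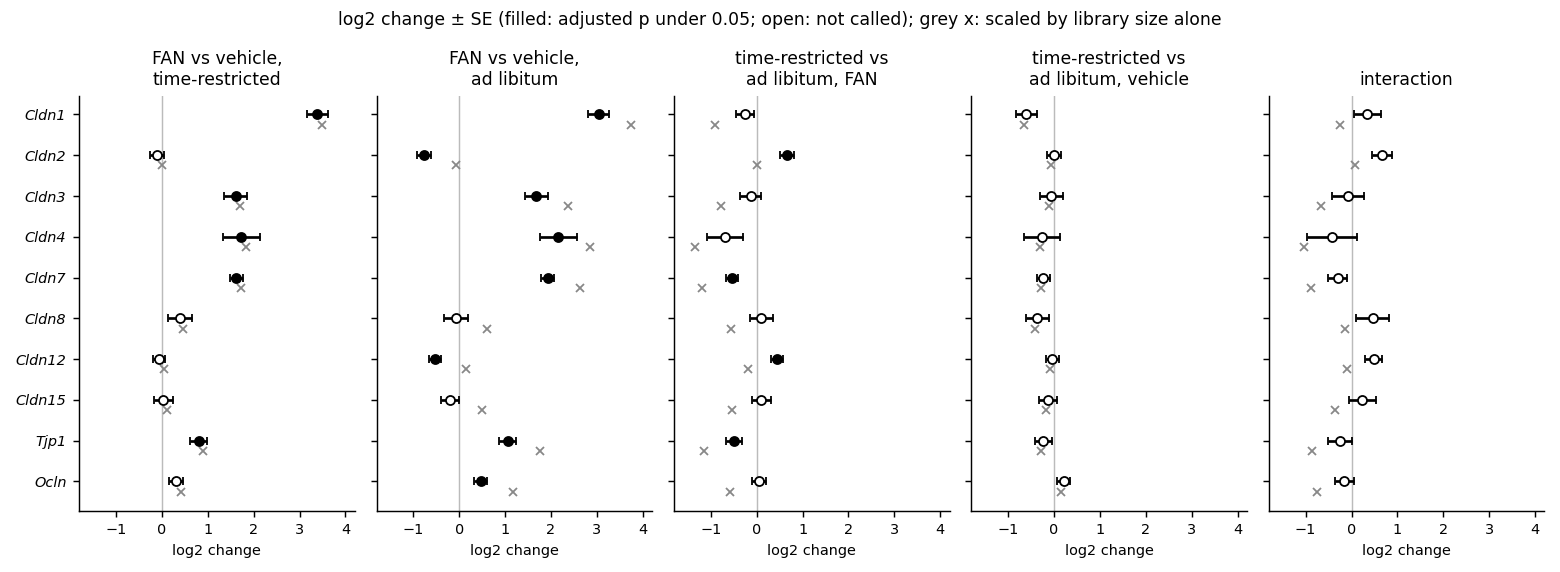
Log2 change of each member with its SE in the 5 contrasts, with filled circles for adjusted p under 0.05, open circles for changes not called and grey crosses for the same contrast scaled by library size alone. Cldn1 has the largest changes after FAN, at 3.39 and 3.04, and the crosses move away from the circles most in the contrasts that hold FAN ad libitum kidneys.

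Proximal tubule markers were lower after FAN under both regimens, whereas Cldn2 and Cldn12 were called lower under ad libitum feeding alone. The summed level of 8 markers (Lrp2, Slc34a1, Slc5a2, Slc5a12, Cubn, Slc22a6, Slc13a3 and Aqp1) was 3894 to 5093 CPM in FAN time-restricted, 1087 to 2764 CPM in FAN ad libitum, 7891 to 9658 CPM in vehicle time-restricted and 7623 to 8695 CPM in vehicle ad libitum kidneys, and 6 of the 8 fell after FAN under each regimen. None was at 0 in any group. Of all genes tested, 19.0% were called lower under time-restricted and 28.6% under ad libitum feeding. Lrp2, the endocytic receptor megalin, fell by 2.14 on the log2 scale under ad libitum feeding (edgeR, adjusted p = 3.78e-08) and by 0.74 under time-restricted feeding (adjusted p = 0.004). The part of these cells in the claudin values was not tested. Marker sums and changes throughout use TMM scaling and are not given by library size.

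The ratio of 2 transcripts within a library does not depend on scaling. The log2 ratio of Cldn2 to Lrp2, a pair chosen after the values were seen, averaged −1.44 ± 0.17 in FAN and −2.08 ± 0.04 in vehicle kidneys under time-restricted feeding (SD, n = 4 each). Under ad libitum feeding it averaged −0.64 ± 0.22 in FAN and −2.04 ± 0.18 in vehicle kidneys. The difference, FAN minus vehicle, was 0.64 under time-restricted and 1.40 under ad libitum feeding. For Cldn12 relative to Lrp2 it was 0.69 and 1.64. These are descriptions of pairs in which the marker fell, and no test is given for them.

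Cldn8, which partners with Cldn4 in the chloride pathway of the collecting duct, did not pass the test in any contrast (ENSMUSG00000050520, chromosome 16, 88560828 to 88563183, minus strand). It had 68.6, 48.5, 36.2 and 93.6 CPM in FAN time-restricted, 50.9, 60.6, 72.9 and 45.8 CPM in FAN ad libitum, 41.0, 51.5, 43.4 and 51.4 CPM in vehicle time-restricted and 52.4, 66.9, 82.6 and 39.4 CPM in vehicle ad libitum kidneys. All groups overlapped, and both the highest and the lowest value were FAN time-restricted libraries. The log2 change after FAN was 0.39 ± 0.25 under time-restricted feeding (edgeR, adjusted p = 0.223) and −0.07 ± 0.25 under ad libitum feeding (adjusted p = 0.827). The second value was 0.61 by library size (adjusted p = 0.0331), below the median of all genes under that scaling.

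Principal cell markers of the collecting duct (Aqp2, Aqp3, Scnn1b, Scnn1g, Avpr2, Fxyd4 and Hsd11b2) summed to 222 to 339 CPM in FAN time-restricted, 156 to 393 CPM in FAN ad libitum, 343 to 548 CPM in vehicle time-restricted and 443 to 568 CPM in vehicle ad libitum kidneys. Of the 6 that were tested, 2 fell after FAN under each regimen and none rose. Of 6 intercalated cell markers, 2 fell under time-restricted and 5 under ad libitum feeding. The shares of all genes called lower were 19.0% and 28.6% under these regimens. Aqp3, the basolateral water channel of principal cells, fell by 1.13 on the log2 scale under time-restricted (edgeR, adjusted p = 0.00345) and by 1.70 under ad libitum feeding (adjusted p = 5.16e-05). The median change of the 6 principal cell markers tested was −0.58 and −0.83. Relative to Aqp3, a marker chosen after the values were seen and given with no test, the log2 ratio of Cldn8 was higher after FAN by 1.45 under time-restricted and 1.83 under ad libitum feeding, and that of Cldn4 by 2.94 and 4.12. Cldn4 thus stood at 0.64 ± 0.63 in FAN against −2.30 ± 0.51 in vehicle kidneys under time-restricted feeding, and at 1.96 ± 0.48 in FAN against −2.16 ± 0.68 in vehicle kidneys under ad libitum feeding (SD, n = 4 each). Urothelium markers, which would mark tissue of the renal pelvis, summed to 29.3 to 97.6 CPM in FAN time-restricted, 63.4 to 109 CPM in FAN ad libitum, 24.5 to 98.96 CPM in vehicle time-restricted and 24.01 to 127 CPM in vehicle ad libitum kidneys. Of these 6 markers 1 was higher after FAN under each regimen, against 24.5% and 32.1% of all genes. Their part in the claudin values was not tested.

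Cldn15, a cation pore best known from the intestine, was low and was called in no contrast (ENSMUSG00000001739, chromosome 5, 136966616 to 136975858, plus strand). It had 10.7, 12.1, 14.7 and 19.2 CPM in FAN time-restricted, 11.5, 13.5, 13.3 and 14.0 CPM in FAN ad libitum, 8.88, 16.3, 15.1 and 14.7 CPM in vehicle time-restricted and 14.3, 19.9, 12.8 and 13.2 CPM in vehicle ad libitum kidneys. The 4 groups overlapped. Its log2 change after FAN was 0.03 ± 0.20 under time-restricted (edgeR, adjusted p = 0.914) and −0.21 ± 0.20 under ad libitum feeding (adjusted p = 0.392).

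Tjp1, the ZO-1 scaffold, rose after FAN under both regimens (ENSMUSG00000030516, chromosome 7, 65296165 to 65527781, minus strand). It had 57.7, 56.6, 46.6 and 56.3 CPM in FAN time-restricted, 92.4, 99.6, 60.1 and 53.1 CPM in FAN ad libitum, 28.1, 33.4, 27.5 and 35.7 CPM in vehicle time-restricted and 33.4, 40.6, 43.3 and 29.4 CPM in vehicle ad libitum kidneys. All FAN libraries were above all vehicle libraries, and FAN ad libitum 6 and 7 were well above 10 and 12. The log2 change was 0.80 ± 0.18 under time-restricted feeding (edgeR, adjusted p = 0.00173) and 1.06 ± 0.18 under ad libitum feeding (adjusted p = 6.58e-05). Without FAN ad libitum 6 and 7 the ad libitum value was 0.58 (adjusted p = 0.0034). Among the earliest sheet positions alone, which keep FAN ad libitum 6 and 7 and vehicle ad libitum 1 and 2, it was 1.34. In FAN kidneys Tjp1 was lower under time-restricted feeding, by −0.49 ± 0.18 (adjusted p = 0.0443). That difference was −0.06 without FAN ad libitum 6 and 7 (adjusted p = 0.819). Among the latest sheet positions alone it was −0.08 (adjusted p = 0.74), from FAN ad libitum 10 and 12 and FAN time-restricted 10, 11 and 12.

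Ocln, occludin, changed least among the members called after FAN (ENSMUSG00000021638, chromosome 13, 100496507 to 100552718, minus strand). It had 28.4, 30.5, 21.8 and 29.7 CPM in FAN time-restricted, 28.2, 26.7, 30.4 and 20.98 CPM in FAN ad libitum, 22.5, 18.3, 20.6 and 27.5 CPM in vehicle time-restricted and 20.9, 18.9, 17.0 and 19.98 CPM in vehicle ad libitum kidneys. FAN and vehicle lay barely apart under ad libitum feeding and overlapped under time-restricted feeding. The log2 change was 0.47 ± 0.15 under ad libitum feeding (edgeR, adjusted p = 0.00984), and 0.32 ± 0.15 under time-restricted feeding did not pass (adjusted p = 0.0922). Without vehicle time-restricted 4 the second adjusted p was 0.0278, and without FAN ad libitum 6 and 7 the first was 0.0863.

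In FAN kidneys 4 of the 10 members were called between time-restricted and ad libitum feeding, a share near the 31.8% of all genes. Cldn2 and Cldn12 were higher (17.9% of all genes) and Cldn7 and Tjp1 lower (13.9%) under time-restricted feeding, with Cldn12 turning to −0.19 by library size. That scaling called no member higher and 7 lower (Cldn1, Cldn3, Cldn4, Cldn7, Cldn15, Tjp1 and Ocln), against 5.60% of all genes higher and 59.2% lower. This contrast shares its libraries with those of FAN against vehicle, so their values are not independent. In vehicle kidneys none of the 10 was called by edgeR or DESeq2. Of all genes tested there, 0% were called by edgeR, with 1143 genes at an unadjusted p under 0.05, and DESeq2 called 58 genes. Cldn1 was the 1 member with an unadjusted p under 0.05, with 6.78 ± 1.10 CPM in vehicle time-restricted and 10.1 ± 3.42 CPM in vehicle ad libitum kidneys (SD, n = 4 each; log2 change −0.60, unadjusted p = 0.0152, adjusted p = 0.66, edgeR).

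No member was called for the interaction of FAN and feeding regimen by edgeR, against 9.16% of all genes. Cldn2, at 0.66, and Cldn12, at 0.48 with an edgeR adjusted p of 0.117, were the 2 members with an unadjusted p under 0.05, where 4237 of all genes stood. DESeq2 called Cldn2 alone (0.62, adjusted p = 0.0351). By library size the interaction median of all genes moved to −0.57, and Cldn7 (−0.89), Ocln (−0.75) and Tjp1 (−0.86) were called.

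Levels of different genes were compared per kilobase of merged exons (GENCODE M21). Markers of every nephron segment were present in each group. In vehicle kidneys Cldn2 led the members, at 123 CPM per kb under time-restricted and 124 under ad libitum feeding, and its libraries did not overlap those of the next member, Cldn8, at 19.9 and 25.6. Cldn12 at 17.996 and 18.4 and Cldn4 at 11.2 and 13.6 followed, each overlapping its neighbour in the order. Cldn1 was last in both vehicle groups, at 1.40 and 2.09 CPM per kb, apart from Cldn3 under time-restricted feeding and overlapping it under ad libitum feeding. In FAN time-restricted kidneys the order was Cldn2 at 115, Cldn4 at 37.5, Cldn8 at 26.2, Cldn12 at 17.4, Cldn1 at 14.5 and Cldn7 at 13.7 CPM per kb, and among these each after Cldn2 overlapped the next. The other 4 members stood at 6.53 to 8.54 CPM per kb. In FAN ad libitum kidneys Cldn2 at 72.8 and Cldn4 at 60.6 overlapped each other, ahead of Cldn8 at 24.4, Cldn7 at 19.9 and Cldn1 at 17.3, which overlapped each other in turn and lay apart from Cldn12 at 12.7.

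The make-up of all claudin transcripts shifted accordingly. Shares of the summed CPM per kb of the 17 claudins that passed the filter do not depend on library scaling. Cldn1, Cldn3, Cldn4 and Cldn7, summed because they rose, made up 23.0% (14.9% to 28.0%) in FAN time-restricted, 37.3% (30.4% to 41.3%) in FAN ad libitum, 6.75% (4.62% to 10.9%) in vehicle time-restricted and 7.62% (5.65% to 10.8%) in vehicle ad libitum kidneys. Cldn4 alone reached 20.8% ± 5.21 (SD, n = 4) in FAN ad libitum kidneys, against 4.33% ± 2.22 in vehicle ad libitum kidneys. Cldn2 made up 35.4% ± 3.75 in FAN time-restricted, 25.2% ± 2.88 in FAN ad libitum, 41.2% ± 2.67 in vehicle time-restricted and 39.9% ± 2.94 in vehicle ad libitum kidneys. Cldn10, the second most abundant claudin in vehicle kidneys and no member of the 10, made up 19.4% ± 2.64, 12.6% ± 3.04, 31.2% ± 1.57 and 30.0% ± 3.16 in the same order of groups. The summed claudin level with TMM was 326 ± 25.4, 286 ± 33.6, 298 ± 15.3 and 309.9 ± 17.9 CPM per kb in that order, and the groups overlapped. Unlike the shares, this sum depends on library scaling, and its value by library size is not given here.

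**Figure D3:**
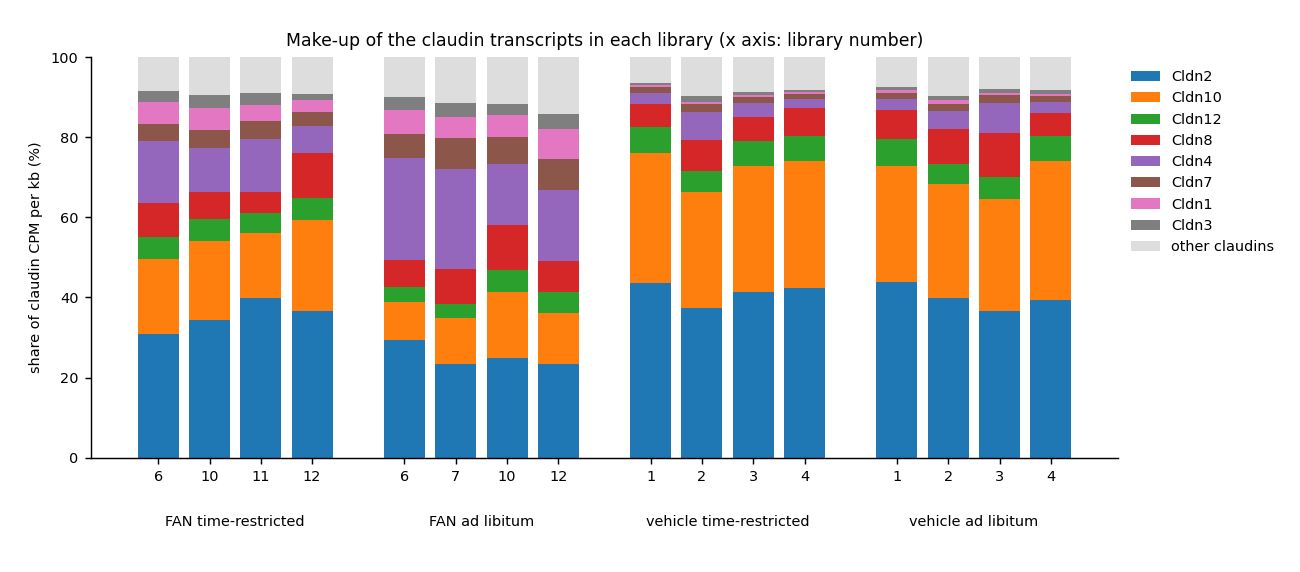
Share of each claudin in the summed CPM per kb of claudins, in percent, as 1 stacked bar per library, with libraries numbered on the x axis and the 9 claudins not shown singly pooled in light grey. Cldn1, Cldn3, Cldn4 and Cldn7 together make up 30.4% to 41.3% in FAN ad libitum libraries and 14.9% to 28.0% in FAN time-restricted libraries, and at most 10.9% in vehicle libraries.

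Of the 16 other claudins listed, 8 passed the filter. Under time-restricted feeding 3 rose and 1 fell after FAN, where 24.5% of all genes were called higher and 19.0% lower. Under ad libitum feeding 2 rose and 2 fell, near the 32.1% and 28.6% of all genes, and by library size 4 were higher and 2 lower (61.0% and 11.7% of all genes). Cldn10 fell by 0.55 (edgeR, adjusted p = 0.00762) and by 1.38 (adjusted p = 5.14e-07) on the log2 scale under these regimens, and was 0.84 higher in FAN kidneys under time-restricted feeding (adjusted p = 5.07e-04). Its interaction was 0.83 (adjusted p = 0.0206). By library size the feeding difference was 0.20 (adjusted p = 0.181) and the interaction 0.24 (adjusted p = 0.303), neither called, and the interactions of Cldn6 (−1.83) and Cldn19 (−1.19) were called. Its proximal and thick limb isoforms were not told apart. Cldn6, a claudin of embryonic epithelia, averaged 4.67 ± 2.48 CPM in FAN time-restricted, 9.94 ± 3.72 CPM in FAN ad libitum, 1.19 ± 0.42 CPM in vehicle time-restricted and 1.04 ± 0.38 CPM in vehicle ad libitum kidneys (SD, n = 4 each). It rose by 1.97 (edgeR, adjusted p = 3.82e-04) and 3.23 (adjusted p = 8.17e-07) under the 2 regimens and was lower under time-restricted feeding in FAN kidneys (−1.07, adjusted p = 0.0216).

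Cldn5 rose by 0.67 under time-restricted (edgeR, adjusted p = 0.0223) and 0.57 under ad libitum feeding (adjusted p = 0.0332). The 7 endothelial markers summed to 242 to 396 CPM in FAN time-restricted, 278.6 to 308.5 CPM in FAN ad libitum, 158.5 to 236 CPM in vehicle time-restricted and 198.02 to 318 CPM in vehicle ad libitum kidneys. Of these, 4 and 2 were higher after FAN under the 2 regimens, against 24.5% and 32.1% of all genes. Of 5 podocyte markers, 4 and 3 were higher. The part of either cell type in the Cldn5 values was not tested. The thick ascending limb claudins Cldn16 and Cldn19, which together carry calcium and magnesium reabsorption, were called in different contrasts with TMM. Cldn16 rose by 0.60 after FAN under time-restricted feeding (edgeR, adjusted p = 0.019). Cldn19 was lower in FAN kidneys under time-restricted than ad libitum feeding (−0.78, adjusted p = 0.0253). By library size both were called higher after FAN under ad libitum feeding (1.14 and 0.66, median of all genes 0.75). Both were then also called lower for feeding in FAN kidneys (−0.51 and −1.45, median of all genes −0.67). Cldn18 was scarce, with 0.55 ± 0.42 CPM in FAN time-restricted, 0.096 ± 0.072 CPM in FAN ad libitum, 1.22 ± 0.47 CPM in vehicle time-restricted and 0.85 ± 0.34 CPM in vehicle ad libitum kidneys, and it fell after FAN under ad libitum feeding (edgeR, log2 change −3.10, adjusted p = 3.77e-04). In FAN kidneys Cldn18 was called higher under time-restricted feeding, by 2.56 with TMM and by 1.93 by library size (edgeR, adjusted p = 0.0156 for the second). Cldn11 and Cldn23 were called in no contrast, and Cldn34c1 made up at most 0.0993% of claudin transcripts.

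Other junction genes were counted by list. Of all genes tested, 24.5% were called higher and 19.0% lower after FAN under time-restricted feeding, and 32.1% higher and 28.6% lower under ad libitum feeding (61.0% and 11.7% by library size). Between the feeding regimens in FAN kidneys, 17.9% were higher and 13.9% lower under time-restricted feeding (5.60% and 59.2% by library size). Of 13 other tight junction membrane proteins tested, 6 rose and none fell after FAN under time-restricted feeding, and 6 rose and 2 fell under ad libitum feeding (11 higher and none lower by library size). The medians were 0.23 and 0.24. Lsr, which encodes angulin-1 of tricellular junctions, rose by 1.21 (edgeR, adjusted p = 0.0017) and 1.73 (adjusted p = 1.87e-05) under these regimens. Cxadr, the coxsackievirus and adenovirus receptor, rose by 0.96 and 0.99, Jam2 by 0.87 and 0.93 and Ildr1 by 0.46 and 0.36. Marveld2, which encodes tricellulin, rose by 0.55 under ad libitum feeding, and Ildr2 fell there by 0.65, a fall that turned to 0.06 by library size. In FAN kidneys Ildr2 was 0.70 higher and Lsr was 0.94 lower under time-restricted feeding. By library size Ildr2 had 0.05 there and was not called (adjusted p = 0.825), and 10 of the 13 were lower and none higher.

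Of 23 scaffold and polarity genes tested, 6 rose and 3 fell after FAN under time-restricted feeding, and 10 rose and 4 fell under ad libitum feeding, with medians of 0.07 and 0.17. The 6 of 23 is near the 24.5% of all genes. By library size 17 were higher and 1 lower under ad libitum feeding. Micall2, a partner of Rab13 in junction assembly, rose by 0.92 (edgeR, adjusted p = 0.0196) and 1.86 (adjusted p = 2.67e-05), Arhgef2 by 0.46 and 0.84, and Prkci, an atypical protein kinase C of the polarity complex, by 0.55 and 0.79. Prkcz, its paralog, had −0.74 (adjusted p = 0.00213) and −1.503 (adjusted p = 7.09e-07). Ybx3 rose by 0.49 under each regimen and Rab13 by 0.45 and 0.94. In FAN kidneys 2 of the 23 were higher and 7 lower under time-restricted feeding (17.9% and 13.9% of all genes), against none higher and 20 lower by library size. Among these, Cgn (cingulin) had −0.95, Micall2 −1.12, Prkcz 0.71 and Pals1 0.61. By library size Prkcz had 0.05 and Pals1 −0.03, neither called.

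Of 16 adherens junction and desmosome genes, 6 rose and 1 fell after FAN under time-restricted feeding, and 8 rose and 2 fell under ad libitum feeding (14 higher and none lower by library size), with medians of 0.29 and 0.44. Cdh3 (P-cadherin) averaged 9.81 ± 2.11 CPM in FAN time-restricted, 33.97 ± 16.8 CPM in FAN ad libitum, 2.11 ± 0.43 CPM in vehicle time-restricted and 2.67 ± 0.31 CPM in vehicle ad libitum kidneys (SD, n = 4 each). Its log2 change after FAN was 2.22 under time-restricted and 3.68 under ad libitum feeding, and its interaction was called (edgeR, −1.46, adjusted p = 0.0325), alone in the list with TMM and among 9 called by library size. Cdh6, a cadherin of the developing proximal tubule, rose by 2.23 and 2.501, desmoglein Dsg2 by 1.21 and 1.62, desmocollin Dsc2 by 0.78 and 1.41 and Ctnnb1 (beta-catenin) by 0.42 and 0.71. The kidney cadherin Cdh16 had −0.69 and −0.79, both called, but the second was −0.08 by library size (adjusted p = 0.72). In FAN kidneys 1 of the 16 was higher and 6 were lower under time-restricted feeding, against none higher and 15 lower by library size, with Cdh3 at −1.78, Nectin1 at −0.84, Jup at −0.77, Cdh6 at −0.74 and Nectin2 at −0.60.

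Of 16 transcription factors of epithelial junction genes, 8 rose and 3 fell after FAN under time-restricted feeding, and 9 rose and 3 fell under ad libitum feeding (11 higher and 2 lower by library size), with medians of 0.44 and 0.75. Sox9, a factor of regenerating tubules, rose by 5.60 (edgeR, adjusted p = 1.64e-07) and 5.57 (adjusted p = 2.12e-08). The junction repressors also rose: Snai2 by 2.15 and 1.95, Zeb2 by 1.60 and 1.84, Snai1 by 2.79 and 2.05 and Zeb1 by 1.37 and 1.26. Hnf4a, the proximal tubule regulator, averaged 373 ± 42.1 CPM in FAN time-restricted, 177 ± 42.2 CPM in FAN ad libitum, 659.6 ± 44.3 CPM in vehicle time-restricted and 696 ± 57.4 CPM in vehicle ad libitum kidneys (SD, n = 4 each). Its log2 change after FAN was −0.82 and −1.98, and its interaction was 1.15 (edgeR, adjusted p = 0.00247). By library size the interaction of Hnf4a was 0.55 and not called (adjusted p = 0.0503), and 4 other factors were called, all lower. Ovol1 had −1.09 and −2.16, both called. In FAN kidneys 2 of the 16 were higher and 3 lower under time-restricted feeding: Hnf4a at 1.07 and Ovol1 at 1.16, and Elf3 at −0.81, Grhl2 at −0.64 and Zeb2 at −0.56. By library size 1 was higher, Hnf4a at 0.42, and 13 were lower, while Ovol1 had 0.49 and was not called (adjusted p = 0.14). Macrophage markers summed to 738 to 1474 CPM in FAN time-restricted, 1474 to 2383 CPM in FAN ad libitum, 116 to 168 CPM in vehicle time-restricted and 128 to 234 CPM in vehicle ad libitum kidneys, and their part in values such as that of Zeb2 was not tested. Among the falls counted under ad libitum feeding, those of Marveld3, Ildr2, Patj, Crb3 and Ctnnd1 turned positive by library size, as the higher values of Pals1 and Nectin3 in FAN time-restricted kidneys turned negative; these were named because they turned. None of the genes of these 5 lists was called for feeding in vehicle kidneys by edgeR.

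**Figure D4:**
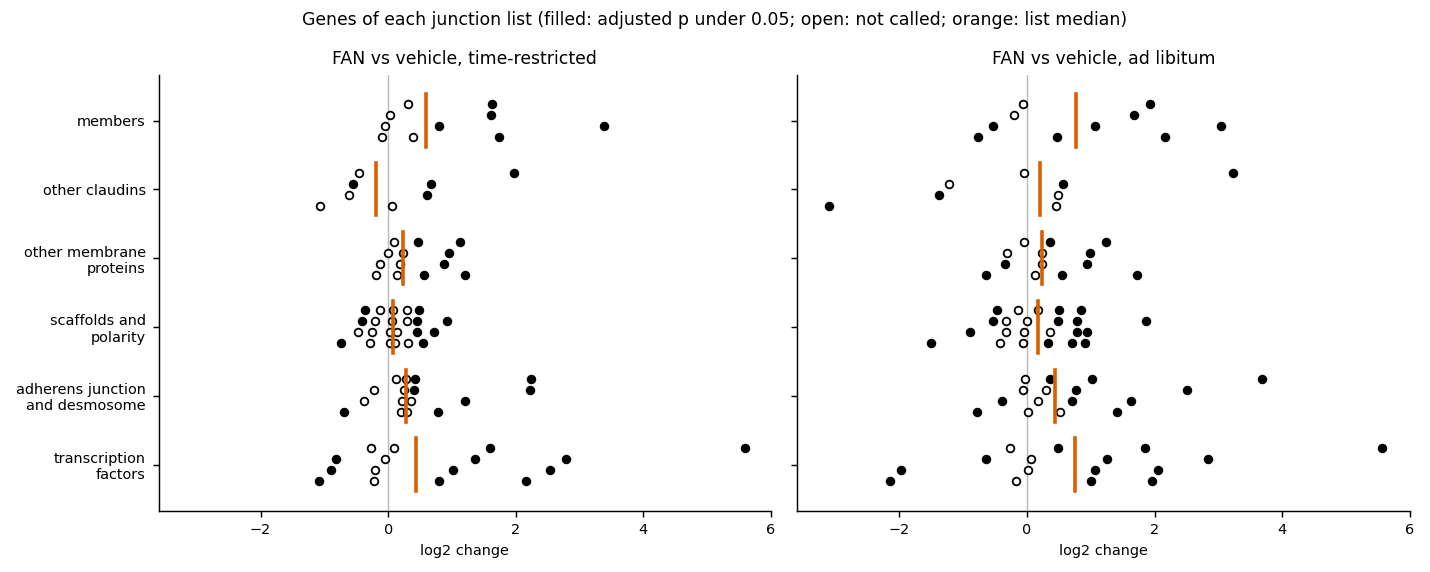
Log2 change after FAN of every tested gene of the 10 members and the 5 other junction lists, under time-restricted feeding on the left and ad libitum feeding on the right, with filled circles for adjusted p under 0.05 and an orange line at each list's median. The members have medians of 0.60 and 0.76, and the point farthest to the right in each panel is Sox9, at 5.60 and 5.57.

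Across the 16 libraries the rising claudins varied together, with Pearson r of log2 CPM of 0.96 between Cldn3 and Cldn7 and 0.95 between Cldn1 and Cldn7. Cldn2 had r of −0.74 with Cldn7. These values describe libraries that share groups and scaling. The genes most like each member outside the 10 were Atf3 and Marcks for Cldn1 (both r = 0.99), Maff (0.97) and Tnfsf13b (0.97) for Cldn3, Sfn (0.98) and Btg2 (0.98) for Cldn4 and Cep170 (0.99) and Sytl2 (0.99) for Cldn7. Cldn2 was most like Fbp1 (0.96) and Sdha (0.95), and Cldn12 most like Plscr2 (0.97) and Sdhaf3 (0.96). Tjp1 was most like Btbd7 (0.97) and Irgm2 (0.97), Ocln most like Atp11b (0.93) and Msi2 (0.91), Cldn8 most like Bmpr1b (0.94) and Prrg1 (0.89), and Cldn15 most like Esam (0.90) and Rilpl1 (0.78).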

How the data were processed

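RNA of 16 mouse kidneys was sequenced. Per the labels' protocols, powdered frozen tissue was extracted with TRIzol, and poly(A) RNA went into stranded libraries. The values are raw read counts per Ensembl gene of 52338 genes, as the authors deposited them. The submitters' processing notes name STAR 2.5.3a, FastQC 0.11.5, edgeR 3.26.7 and mm10. Which tool counted reads, and with what strand setting, is not given in the sources used here. FAN columns carry numbers that differ from the sample titles and were mapped to their group only. The table's own coordinates are not those of GRCm38 (2.8% of matched starts were equal), so printed ones are from GENCODE M21, which 52029 identifiers matched, and 71 genes had no symbol. Replicates were distinct libraries (chi-square per gene of at least 16.1). Within FAN ad libitum it was 21.0 between 6 and 7, 26.1 between 10 and 12 and 144 to 154 between these pairs. In the other groups it was at most 80.3.

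Counts were analysed with edgeR 4.0.16 in R 4.3.3: filterByExpr with a minimum count of 10, TMM, 1 quasi-likelihood model of 4 groups over 16 libraries, two-sided tests and Benjamini-Hochberg adjustment over 17731 genes at 0.05. Log2 CPM used a prior count of 2. The fit was run on simulated counts with 200 changed genes, as many raised as lowered. These counts held no shift in scaling like that of the FAN ad libitum libraries, so they cannot decide between scalings. Alternatives were library size scaling, size factors of DESeq2 1.42.0, DESeq2 itself, no filter, sheet position as a covariate, single sheet positions, a length trend, a replicate block in vehicle and leaving out libraries. Those with 3 classes of sheet position, with the latest positions and without FAN ad libitum 6 and 7 together were chosen after seeing the data. Totals of 12450812 to 33976660 counts per library set the precision of low genes. Reads carry no molecular identifiers. Members and lists were chosen with earlier results of these data known. The text names all members, every claudin that passed the filter, up to 5 called genes with the smallest p per list and contrast, and the 2 genes most like each member among those with a mean of at least 5 CPM. Some list genes are counted but not reported here by name. Motif letters were searched in 250 bases before each RefSeq start.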

Additional observations from a re-analysis of the deposited data

Results flagged for a closer look

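Within the 40 sets of 4 libraries (10 members in 4 groups), Dixon's test at the 95% level picked out 3 values, and chance alone picks about 1 in 20. Cldn7 in FAN ad libitum library 7 stood above the other libraries of its group, at 43.3 CPM. Tjp1 in FAN time-restricted library 11 stood below its group, at 46.6 CPM. Cldn15 in vehicle time-restricted library 1 stood below its group, at 8.88 CPM.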

How the results depend on the processing

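Of the 10 members, the calls after FAN of Cldn1, Cldn3, Cldn4, Cldn7 and Tjp1 under both regimens kept their direction and call under every alternative run. With library size scaling, 7 members and 11496 genes were called for feeding in FAN mice and 3 members and 6624 genes for the interaction. The direction turned there for FAN under ad libitum feeding in Cldn15 (0.49), Cldn12 (0.15) and Cldn8 (0.61), and for FAN under time-restricted feeding in Cldn12 (0.05) and Cldn2 (0.00). It also turned for feeding in FAN mice in Cldn15 (−0.54), Ocln (−0.59), Cldn12 (−0.19) and Cldn8 (−0.56), and for the interaction in Cldn15 (−0.36), Cldn1 (−0.25), Cldn12 (−0.10) and Cldn8 (−0.14). DESeq2 and its size factors in edgeR each turned Cldn15 for FAN under time-restricted feeding (−0.01) and Cldn2 for feeding in vehicle mice (0.01). DESeq2 called 58 genes for feeding in vehicle mice and 1 member for the interaction. Without a filter 6 genes were called for feeding in vehicle mice. With 3 classes of sheet position 4974 genes were called for FAN under time-restricted feeding, against 7719 in the main fit, and Cldn15 turned to −0.23 there. The same covariate called 1 gene for feeding in vehicle mice. The earliest positions alone turned Cldn4 (0.26) and Cldn3 (0.07) for feeding in vehicle mice. The latest positions alone called 2 members and 2129 genes for feeding in FAN mice. Without FAN ad libitum 6 and 7 together, 1 member and 3126 genes were called for feeding in FAN mice, 7 genes for feeding in vehicle mice and 1 member for the interaction. That setting turned Cldn15 for FAN under time-restricted feeding (−0.02) and Tjp1 (0.18), Cldn4 (0.07) and Cldn3 (0.05) for the interaction. Removing the length trend turned Cldn8 for FAN under ad libitum feeding (0.07), Cldn15 (−0.04) and Cldn8 (−0.02) for feeding in FAN mice and Cldn2 for feeding in vehicle mice (0.02), where it called 2 genes. The cause of these changes was not tested. Leaving out 1 library at a time gave 2 to 4 members called for feeding in FAN mice, 0 to 1 for the interaction and 0 to 4 genes for feeding in vehicle mice. The call of Tjp1 for feeding in FAN mice was lost in 11 of these 16 fits (−0.63 to −0.34), those without FAN ad libitum 6 or 7, any FAN time-restricted library, vehicle ad libitum 1 or 2, or vehicle time-restricted 1, 2 or 3. That of Cldn12 had an adjusted p of 0.0566 when FAN ad libitum 7 was left out, and its interaction was called without FAN ad libitum 10 (adjusted p = 0.036). Leaving out 1 library turned only uncalled values: Cldn8 (−0.23 to 0.11) for FAN under ad libitum feeding, Cldn15 (−0.14 to 0.15) for FAN under time-restricted feeding, Cldn15 (−0.06 to 0.23), Ocln (−0.04 to 0.14) and Cldn8 (−0.17 to 0.27) for feeding in FAN mice, Cldn15 (−0.23 to 0.04), Cldn12 (−0.09 to 0.06), Cldn2 (−0.04 to 0.07), Cldn4 (−0.68 to 0.12) and Cldn3 (−0.38 to 0.10) for feeding in vehicle mice, and Cldn3 (−0.23 to 0.25) for the interaction. Same-numbered vehicle libraries had correlated deviations of 0.179, 0.119, −0.146 and −0.013, so the numbers did not pair them, and a replicate block in vehicle kidneys called 0 members and 0 genes, as without it. The numbers of FAN columns are not those of the FAN sample titles, so they were not used to pair libraries and no block was run there. Counts limit Cldn18, Cldn11 and Cldn23 most, each near or under 1 CPM.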
